A study of Rattus norvegicus with 3 samples.

Results

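The cortex-medulla junction of a rat thymus section was taken as every square bin lying within 50 µm (100 coordinate units of the capture chip) of the border between deposited cortex and deposited medulla, on either side of it. It held 76406 of the 599178 bins of the section (12.8%), or 7.64 mm². Of these, 43680 bins lay on the cortical side and 32726 on the medullary side. A bin is 20 units, 10 µm, wide, so the junction was 5 bins deep on each side.

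The section was 10 µm thick and was cut from the thymus of an 8-week-old Lewis rat, an inbred strain with no treatment named in the labels, with both lobes of the organ set back to back. It was measured with Stereo-seq, which captures polyadenylated RNA on a chip patterned at 0.5 µm. Stromal cells lacking CD45 and thymocytes from Lewis rat thymi formed 2 droplet single-cell libraries. Each kind of material had 1 sample, so nothing here has a replicate check and no test was run. Intervals are 95% intervals and cover counting error only, and neighbouring bins share tissue and RNA.

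The thymic cortex is where double-positive thymocytes are made and tested for binding to self peptides, and the medulla is where the survivors meet medullary epithelium before they leave. The cells that pass selection in the cortex cross the junction by chemokine-guided migration. The junction is also known as the place where large vessels run, where progenitors enter from blood and where mature T cells leave.

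Cell labels are those the authors assigned to each bin by RCTD, a method that estimates which reference types make up a mixture. RCTD gave a bin 1 to 3 labels in order, and shares below refer to the first. The 31 labels include no myeloid, dendritic or B cell type, so those cells could not be placed. Regions were used as deposited. The rule behind them is not given in the sources used here, and the same bins' RNA gave the labels, so a change of label across the border describes the map and is not independent of it. Medulla was deposited as 2 regions, mECA and mEFA. The series title speaks of epithelium-free areas, and mEFA is read here as that area and mECA as the rest of the medulla.

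Beyond the junction, bins 50 to 100 µm from the border form the mid medulla (17133 bins) and mid cortex (47826). Bins over 100 µm away form the inner medulla (9875) and deep cortex (322323). The capsular area, 125615 bins, stayed outside the zones. The medulla was scattered in 165 separate pieces, of which 50 had at least 100 bins. As a result, 54.8% of all medullary bins belonged to the junction but only 10.6% of cortical bins. The share was alike in mECA, 55.3%, and mEFA, 53.6%. The map of zones shows the junction as a band around each piece.

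**Figure D1:**
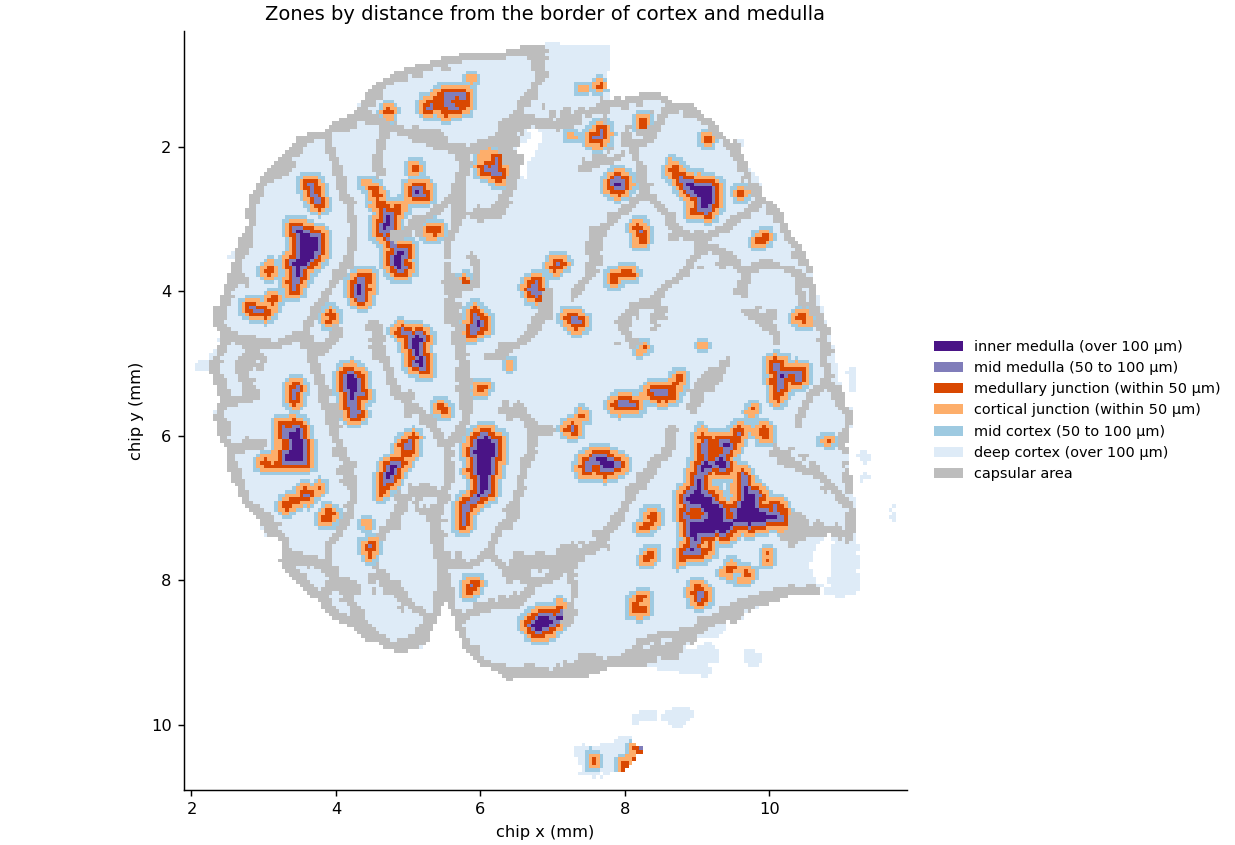
Section drawn in blocks of 100 units, coloured by the most frequent zone, with chip x and y in mm. The 165 medullary pieces are ringed by the medullary and cortical junction, 12.8% of all bins, and many small pieces hold no inner medulla.

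RNA capture fell across the junction from the medulla to the cortex. Median unique molecular identifiers (UMIs, each a captured RNA molecule) per bin were 511 in the inner medulla, 517 in the mid medulla and 500 in the medullary junction. They were 402 in the cortical junction (interval 401 to 404), 311 in the mid cortex and 293 in the deep cortex. The fall therefore lay on the cortical side, and the median reached 402, midway between the inner medulla and the deep cortex, 26.0 µm inside the cortex. For a view of single places, each medullary piece was joined with the cortex nearest to it, and 50 such areas had at least 100 labelled bins in both cortical zones. The cortical junction had more UMIs than the deep cortex in 49 of the 50.

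Bins holding more than 1 type were more frequent in the medulla than in the cortex. They made up 84.5% of labelled bins in the inner medulla, 89.2% in the mid medulla, 88.2% in the medullary junction, 62.6% in the cortical junction and 31.8% in the deep cortex. Bins that carried both a cortical label (DN, DP, DP-P, Pre DP-sig or cortical epithelium) and a medullary one (mature, regulatory, agonist-selected or late immature thymocytes, medullary epithelium or TMC4) were commonest in the cortical junction, at 17.7% (17.3 to 18.0). They were 12.5% in the medullary junction, 12.0% in the mid cortex, 8.91% in the deep cortex and 7.04% in the inner medulla. Taken over bins with more than 1 type alone, they were at 28.2% in the cortical junction, 31.0% in the mid cortex, 28.1% in the deep cortex and 14.2% in the medullary junction, with no peak at the junction. From the deep cortex to the mid medulla the share of bins with more than 1 type rose with depth, while the inner medulla had more UMIs than the medullary junction and fewer such bins. Depth is therefore given beside the label shares below. Its part in them was not tested except where shares at equal depth are printed.

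Double-negative (DN) and double-positive (DP) thymocytes are the stages before selection, and both labels became rarer towards the medulla. DP, the resting double-positive stage, was the first label of 27.7% of deep cortical bins, 23.3% of mid cortical bins, 13.4% of the cortical junction, 2.44% of the medullary junction and 0.294% of the inner medulla. Its share in the cortical junction was 0.484 of that in the deep cortex (0.472 to 0.496). It was lower there around all 50 areas, with a lowest, median and highest share of 4.69%, 13.6% and 25.0% against 19.1%, 28.3% and 35.9%. DN was the first label of 49.8% of deep cortical bins and 31.4% of the cortical junction, a ratio of 0.631 (0.622 to 0.640), and was lower around 48 of 50 areas.

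The DN label cannot be read as a count of DN cells. It was the first label of a large part of the cortex, while the authors' DN type made up 4.56% of annotated cells in the thymocyte library. Proliferating double-positive cells (DP-P) were at 1.26% in the cortical junction and 2.32% in the deep cortex, a ratio of 0.544. Pre DP-sig, the label next to DP in the authors' series of names, was at 8.39% and 10.2% (ratio 0.822). Cortical epithelium (cTEC), which displays the peptides of positive selection, was at 0.436% against 0.602% (ratio 0.724, 0.624 to 0.841).

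Of the 28 labels with at least 20 bins in the 2 zones together, 23 (82.1%) had a share at least 1.5-fold higher in the cortical junction than in the deep cortex, and 3 (10.7%) one at least 1.5-fold lower. DN, DP and DP-P were the 3 that were lower. A raised share at the cortical edge was thus the common case, and the sizes and positions below say more than the direction.

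Thymocytes that have just received a selecting signal peaked at the border. The DP-sig label, for signalled double-positive cells, was at 1.53% in the deep cortex, 2.39% in the cortical junction, 1.85% in the medullary junction and 0.699% in the inner medulla. Immature CD4-1 was at 0.359%, 1.04%, 1.20% and 0.608% in the same order. Immature CD8-1 was at 1.29%, 2.77%, 2.73% and 2.18%. These labels were thus lower at both ends than at the junction. DP-sig was higher in the cortical junction than in the deep cortex around 45 of 50 areas, Immature CD4-1 around 46 and Immature CD8-1 around 49.

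Of the 28 labels, 10 had their highest share in 1 of the 2 junction zones. In 8 of them the interval lay above those of both the inner medulla and the deep cortex: DP-sig, Immature CD4-1, Immature CD8-1, AgoSel1, AgoSel2 and the 3 labels of medullary epithelium. On the medullary side, DP-sig was compared within bands of UMIs. Its share in the medullary junction and the inner medulla was 3.08% and 1.63% among bins of 300 to 399 UMIs, 2.22% (1.96 to 2.52) and 0.779% (0.509 to 1.14) at 400 to 499, and 1.35% (1.15 to 1.58) and 0.292% (0.151 to 0.509) at 500 to 599. Only the shallow band of 200 to 299 UMIs went the other way, with 3.91% against 6.90% on 10 of 145 inner bins.

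The overall DP-sig ratio of medullary junction to inner medulla was 2.64 (2.06 to 3.38), and 2.48 when the junction was set to the UMIs of the inner medulla. It was 0.689 only when each decile of the UMIs of the whole section was given equal weight, which weighs shallow bins that the inner medulla has few of. The ratio of Immature CD8-1 was 1.25, 1.20 and 0.968 in the same order.

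**Figure D2:**
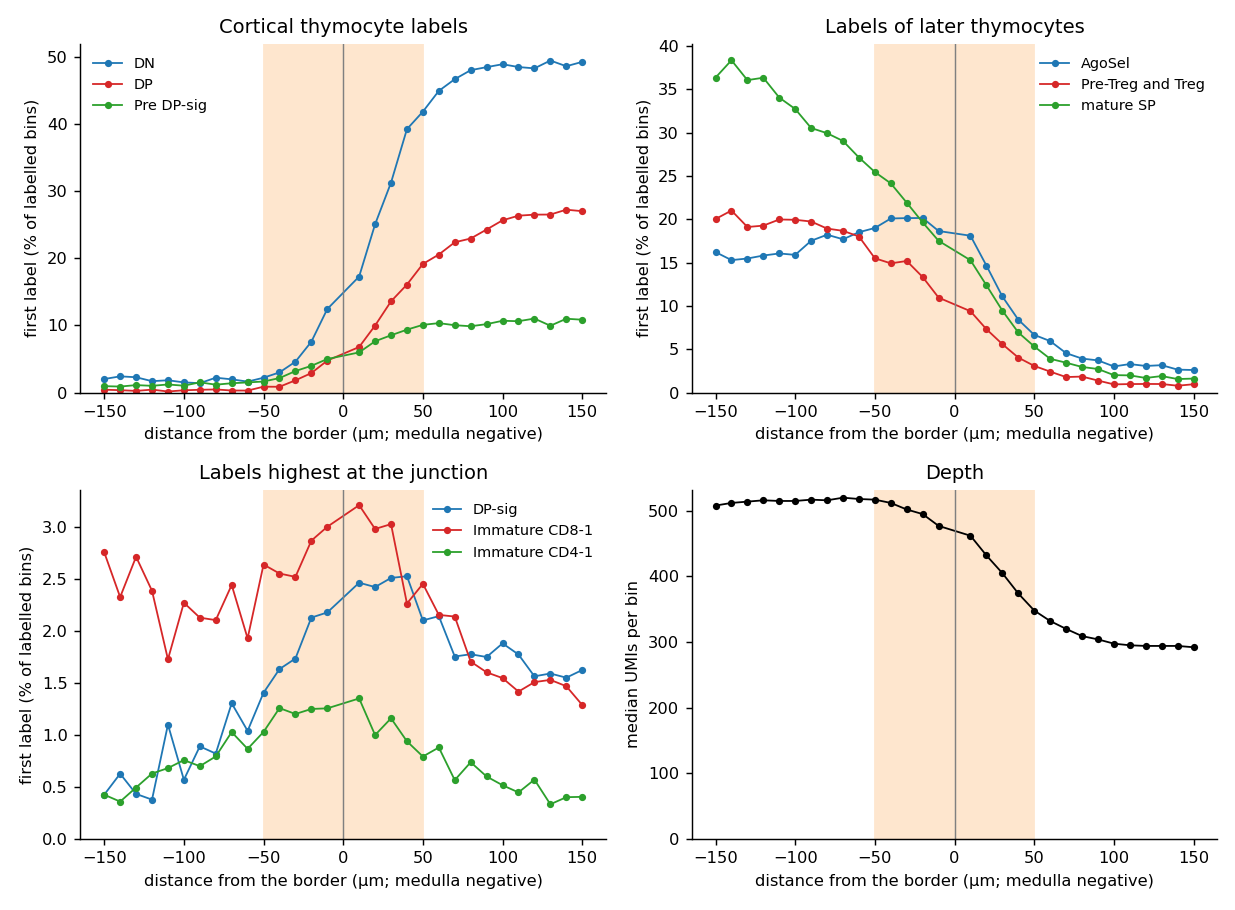
Share of first labels (percent of labelled bins) and median UMIs in rings 10 µm wide against distance from the border in µm, medulla negative, with the junction shaded. DN and DP climb towards 49.8% and 27.7% inside the cortex, mature SP climbs towards 35.8% in the medulla, and DP-sig, Immature CD8-1 and Immature CD4-1 are highest near the border.

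The agonist-selected labels AgoSel1 and AgoSel2, for thymocytes with a strong self-antigen signal, were frequent first labels at the medullary edge. As with DN, their shares cannot be read as counts of cells. The types made up 0.819% and 0.679% of annotated cells in the thymocyte library, under the 1.14% and 1.45% of these labels in the deep cortex, their lowest zone. Together the 2 labels were at 2.59% in the deep cortex, 11.5% in the cortical junction, 19.5% in the medullary junction and 16.1% in the inner medulla. The cortical junction stood 4.45 times above the deep cortex, and did so around all 50 areas. AgoSel1 was at 6.33% in the medullary junction against 4.32% in the inner medulla, a ratio of 1.47 (1.32 to 1.62). The ratio was 1.44 at the UMIs of the inner medulla and 0.994 with equal weight for each decile of the section's UMIs. Among bins of 400 to 499 UMIs AgoSel1 was at 7.27% against 3.86%, and at 500 to 599 at 5.72% against 4.28%. AgoSel2 differed less, 13.2% against 11.8% (ratio 1.12). Its ratio turned to 0.914 among bins given 1 type, 0.932 among confident labels and 0.971 at the mEFA border. In cell bins with their own region map, where the inner medulla held only 1156 cell bins, it was 0.983.

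Mature thymocytes gave the opposite slope to DP and kept rising away from the border. The 4 mature single-positive (SP) labels together made up 1.44% of the deep cortex, 9.65% of the cortical junction, 21.4% of the medullary junction, 29.6% of the mid medulla and 35.8% of the inner medulla. The medullary junction held 0.596 of the inner medullary share (0.577 to 0.617), and was lower in all 12 areas that had enough inner medulla. The 12 shares ran from 18.9% through a median of 22.8% to 29.1% at the junction and from 25.5% through 37.1% to 42.7% inside. These ranges overlapped although each area showed the same direction.

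Among the mature labels, the -1 members were concentrated deepest. Mature CD4-1 was at 2.25% in the medullary junction and 5.02% in the inner medulla (ratio 0.448), and Mature CD8-1 at 2.66% and 5.62%. Mature CD4-2 was at 8.08% and 12.8%, and Mature CD8-2 at 8.37% and 12.4%. Regulatory T cells, which restrain immune responses to self, followed the mature labels. Treg and its precursor Pre-Treg together were at 0.780% in the deep cortex, 5.75% in the cortical junction, 13.8% in the medullary junction and 20.01% in the inner medulla, and were lower at the medullary edge in 12 of 12 areas. In the thymocyte library these types made up 0.433% and 0.644% of annotated cells, and the label shares are not counts of cells.

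Compared with the inner medulla, 10 of 27 labels with that many bins (37.0%) had a share at least 1.5-fold higher in the medullary junction and 6 of 27 (22.2%) one at least 1.5-fold lower. The higher ones included the cortical labels DN, 6.45% against 1.91%, and DP, 2.44% against 0.294%. Both were higher in 12 of 12 areas.

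The labels did not change over at 1 line. For each, the distance was found at which its share in rings 10 µm wide lay midway between the inner medulla and the deep cortex. Going from cortex to medulla, AgoSel was midway at 31.5 µm inside the cortex, medullary epithelium at 30.5 µm, DP at 26.7 µm and DN at 16.3 µm. Immature CD4-2 was midway at 24.1 µm, also inside the cortex. Immature CD8-2 at 6.69 µm, Treg at 4.66 µm, Pre DP-sig at 1.27 µm and Mature CD8-2 at 0.285 µm were midway within 1 bin of the border. AgoSel and medullary epithelium were higher at the medullary edge than in the inner medulla. Their midway shares, 9.34% and 6.19%, thus lay far under their peak rings, 20.1% and 21.3%. This moves their midway points towards the cortex, so their rank against DN and DP partly follows from the definition.

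Past the border, Mature CD4-2 was midway at -7.84 µm (the minus sign marks the medullary side), Pre-Treg at -9.58 µm, Mature CD8-1 at -24.2 µm and Mature CD4-1 at -36.0 µm. Immature CD4-2 thus changed over on the cortical side and the -1 mature labels on the medullary side, while Immature CD8-2 lay within 1 bin of the border. The positions of the -1 labels followed the mEFA border, where Mature CD4-1 was midway at -36.2 µm and Mature CD8-1 at -27.2 µm. At the mECA border Mature CD4-1 was midway at -8.25 µm, under 1 bin from the border, and Mature CD8-1 passed its midway share 3 times, so no point is given. A bin is 10 µm wide, so differences under that width should not be read as an order.

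**Figure D3:**
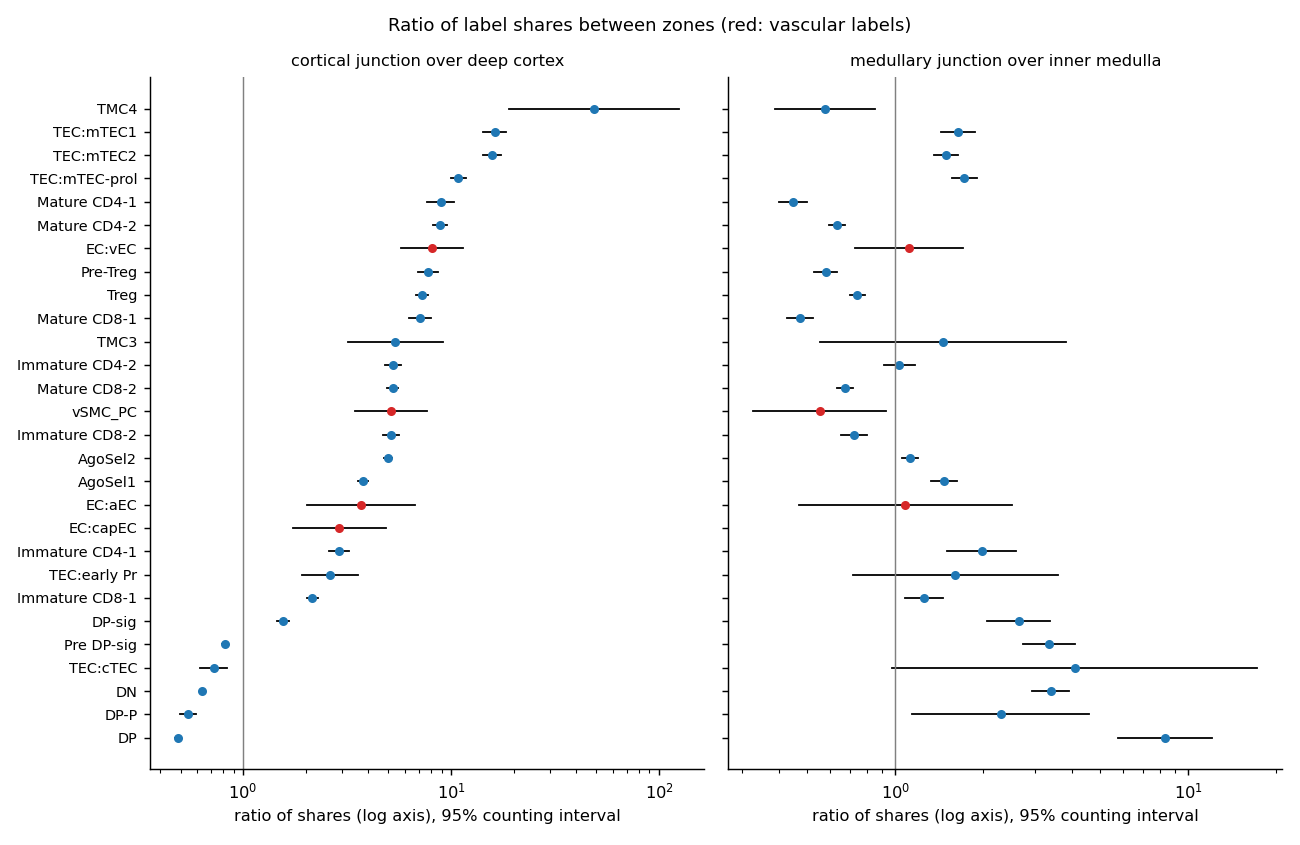
Ratio of label shares with 95% counting intervals on log axes, cortical junction over deep cortex (left) and medullary junction over inner medulla (right), for labels with at least 20 bins in 1 of the 2 zones. DP is lowest at left with 0.484 and highest at right with 8.31, and mature SP labels lie right of 1 at left and left of 1 at right.

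The section files used here hold no counts per gene, so the genes behind these labels were read in the thymocyte library, as counts per 1000000 UMIs of each type (CPM). They are described for the cells of that library, not for their place. Rag1, which cuts the receptor genes and marks the DP stage, was at 1952 CPM in DP. Cd69, an early activation marker that holds cells in tissue, was at 5.55 CPM in DP, 193 in DP-sig and 346 in AgoSel1. Both chemokine receptors that pull cells towards the medulla came after DP. Ccr4 was at 1.74 CPM in DP, 63.6 in DP-sig and 71.7 in Immature CD4-1, and down to 20.7 in Mature CD4-1.

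Ccr7, the receptor for Ccl21, came later than Ccr4. It was at 0.211 CPM in DP, 2.33 in DP-sig on 3 UMIs, 18.2 in Immature CD4-1 on 14 UMIs and 59.1 in Mature CD4-1 on 60 UMIs. Ccr9, the receptor for the cortical chemokine Ccl25, ran the other way at 499 CPM in DP, 577 in DP-sig, 571 in Immature CD4-1 and 29.5 in Mature CD4-1. S1pr1, the receptor that leads mature cells out into blood, was at 1.32 CPM in DP and 219 in Mature CD4-1, and Klf2, its activator, at 17.7 and 481. The 3 types with the most Ccr4, Immature CD4-1, AgoSel1 (67.8 CPM) and DP-sig, carried labels that were highest in a junction zone. The type with the most S1pr1 and Klf2, Mature CD4-1, carried the label with the deepest midway point in the medulla over both borders together. This sets 2 kinds of sample side by side and is a description.

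The markers listed for these labels were checked in the libraries. All 5 DP genes were highest in DP, and all 4 mature SP genes in a mature type. Only 1 of 4 DN genes was highest in DN (Ptcra at 272 CPM, against 265 in DP-P). The 5 genes of the signalled stages were listed for all types from DP-sig onwards together, a wide group, and each was highest in 1 of those types. Only Tox was highest in DP-sig itself, at 3352 CPM against 2229 in Pre DP-sig. Cd69 was highest in AgoSel1, Itm2a and Ccr4 in Immature CD4-1 and Ccr7 in Pre-Treg. All 4 cTEC genes were highest in cTEC. Of the mTEC1 genes 1 of 3 was, Krt5, at 3340 CPM against 3119 in cTEC. Ccl21 stood at 22085 CPM in TMC4, a group of mesenchymal cells, against 12495 in mTEC1. Krt14 stood at 4142 CPM in cTEC against 3622 in mTEC1.

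Medullary epithelium was most frequent on the medullary side of the border. The 3 labels of medullary epithelial cells (mTEC) together made up 0.576% of the deep cortex, 7.72% of the cortical junction, 19.0% of the medullary junction, 17.4% of the mid medulla and 11.8% of the inner medulla. All epithelial labels together were at 19.2% in the medullary junction against 11.9% in the inner medulla (ratio 1.61, 1.52 to 1.71). They were higher at the junction in 9 of 12 areas and lower in 3. The ratio was 1.10 against the mid medulla in place of the inner medulla and 1.16 when a label in any of the 3 places was counted.

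The 3 mTEC labels behaved alike. The proliferating label mTEC-prol was at 7.74% and 4.50% in the medullary junction and inner medulla, mTEC1 at 3.98% and 2.43%, and mTEC2 at 7.28% and 4.87%. Of annotated cells in the stromal library, mTEC-prol made up 0.575%, mTEC1 3.64% and mTEC2 0.461%, another order. The shares of these labels cannot be read as counts of cells. In the stromal library mTEC2 had the most Aire, the factor that switches on tissue-restricted genes, at 468 CPM, and the most Ccl22, a ligand of Ccr4, at 771 CPM. Fezf2, also listed for mTEC2, was at 232 CPM there and at 244 in mTEC-prol, so 2 of 3 mTEC2 genes were highest in mTEC2. The inner medulla held more mEFA (44.6% of bins) than the mid medulla (27.1%) or the medullary junction (32.0%), so the shares of epithelium are also given by region.

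At the mECA border, mTEC labels were at 12.2% of the cortical junction, 24.0% of the medullary junction and 18.2% of the inner medulla. At the mEFA border they were at 2.86%, 8.32% and 3.90%. The medullary edge thus held more epithelium than the centre in both regions, with a ratio for all epithelial labels of 1.32 in mECA and 2.18 in mEFA. Part of the mEFA edge touched mECA closely: 73.4% of its bins lay within 50 µm of an mECA bin.

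Where the medulla was mEFA, thymocyte labels changed over further towards it, though DN and DP were still midway on the cortical side. Of the medullary bins that touched cortex, 39.4% were mEFA. DN was the first label of 12.7% of the mEFA edge and 3.57% of the mECA edge, a ratio of 3.54 (3.26 to 3.86), and DP of 5.37% and 1.08%. DN was midway between its 2 end shares at 3.27 µm inside the cortex at mEFA and at 26.1 µm at mECA. DP was midway at 13.8 and 37.3 µm. Mature SP labels were midway at -18.7 µm, on the medullary side, at mEFA and at 5.49 µm, on the cortical side, at mECA.

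On the cortical side, bins nearest to mEFA held 38.2% DN, 8.25% AgoSel and 7.44% mature SP labels, and those nearest to mECA 25.2%, 14.5% and 11.7%. Depth moved the same way, with medians of 375 UMIs beside mEFA and 429 beside mECA in the cortical junction, and 471 and 511 in the medullary junction. Its part in the difference was not tested. The mEFA edge over 100 µm from any mECA bin, 801 labelled bins, held 15.5% DN (13.0 to 18.2) and 7.49% DP, so the high shares were also present away from mECA. Those bins were shallower too, with a median of 430 UMIs against 474 in the mEFA edge within 50 µm of mECA. In the deep cortex, far from either region, the DN share was alike at 49.4% and 50.1%. How the authors drew mEFA and mECA is not given in the sources used here, and a border drawn further out at mEFA cannot be told apart from tissue that differs.

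**Figure D4:**
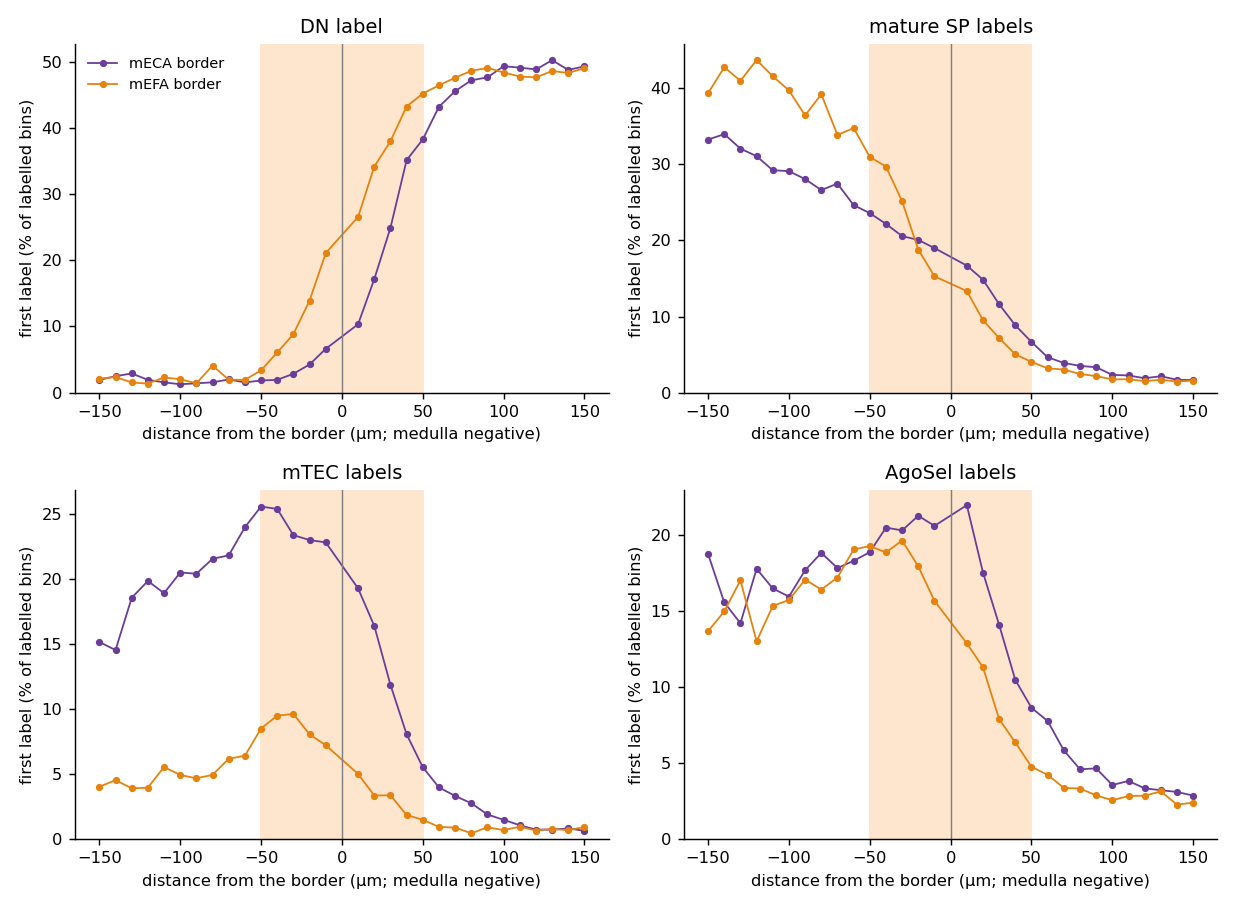
Share of first labels (percent of labelled bins) against distance from the border in µm, medulla negative, for bins of or nearest to mECA and mEFA. DN rises further inside the medulla at mEFA (12.7% of its edge against 3.57%), and mTEC labels peak in the medullary junction of both regions at different heights.

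Vascular labels were more frequent near the border than in the deep cortex, while the comparison with the inner medulla differed between mECA and mEFA. The 4 labels are arterial, capillary and venous endothelium (aEC, capEC and vEC, abbreviations the files do not spell out) and vSMC_PC, for smooth muscle cells and pericytes that wrap vessels. Together they were the first label of 205 deep cortical bins (0.0643%), 75 mid cortical bins (0.159%), 146 cortical junction bins (0.339%, 0.286 to 0.398), 178 medullary junction bins (0.547%, 0.470 to 0.633), 101 mid medullary bins (0.590%) and 60 inner medullary bins (0.608%). The cortical junction stood 5.27 times (4.26 to 6.51) above the deep cortex, beside the 82.1% of labels that were raised there.

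The medullary junction was at 0.899 of the inner medulla, with an interval of 0.672 to 1.20 that includes 1. The ratio was 2.08 (1.17 to 3.69) at the mECA border, on 110 and 13 bins, and 0.618 (0.427 to 0.895) at the mEFA border, on 68 and 47 bins. Over the 12 areas with enough inner medulla, the junction was higher in 8 and lower in 4, with median shares of 0.465% and 0.339%. Over the whole medulla a difference was thus not detectable at these counts, and the 2 regions had opposite directions. On the cortical side the junction was higher than the deep cortex in 33 of 50 areas, lower in 12 and tied in 5, with median shares of 0.222% and 0.0446%.

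The size of the cortical contrast depended on how vascular bins were counted. Counting the label in any of the 3 places gave 3.19% against 1.85%, a ratio of 1.73, and the sum of weights gave 2.03. With equal weight for each decile of the section's UMIs the ratio of first labels was 2.47, and at the UMIs of the deep cortex 2.48. Among bins of 400 to 499 UMIs the shares were 0.532% (0.410 to 0.679) and 0.141% (0.109 to 0.179). The ratio lay above 1 in each of these counts.

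Among first labels of the 20-unit bins, venous endothelium gave the largest ratio of the vascular labels. vEC was the first label of 63 deep cortical bins (0.0198%), 42 mid cortical bins (0.0889%), 69 cortical junction bins (0.160%), 99 medullary junction bins (0.304%), 54 mid medullary bins (0.316%) and 27 inner medullary bins (0.274%). The cortical junction was 8.10 times (5.76 to 11.4) above the deep cortex. The corresponding ratio was 5.14 (3.45 to 7.65) for vSMC_PC, 3.70 (2.03 to 6.74) for aEC on 16 and 32 bins, and 2.90 (1.73 to 4.86) for capEC on 20 and 51 bins. The intervals of vEC and capEC did not overlap. The order depended on the count. With a label in any place vSMC_PC was at 0.821% against 0.333%, a ratio of 2.47 (2.19 to 2.78), above 2.14 (1.94 to 2.36) for vEC. In segmented cells placed by the nearest bin the ratio was 5.08 for aEC, 4.89 for vSMC_PC and 4.18 for vEC, with intervals that overlapped. The capEC ratio fell to 0.925 when a label in any place was counted and to 0.485 among confident labels, where the junction had 1 bin.

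**Figure D5:**
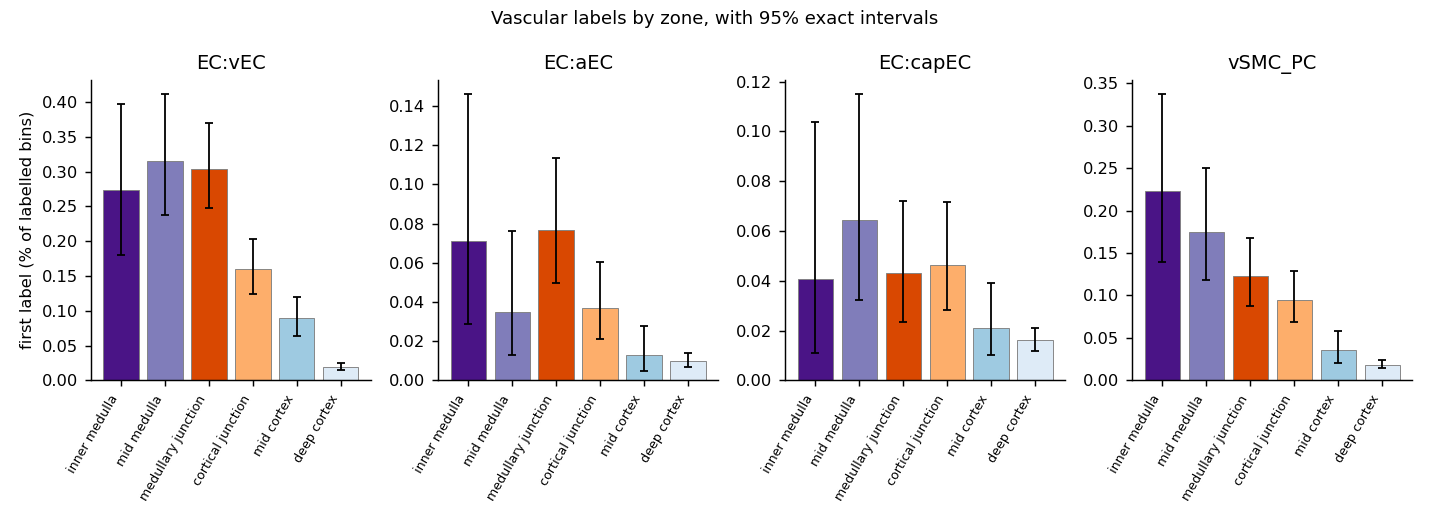
Bars give the share of each vascular first label (percent of labelled bins) in the 6 zones from inner medulla to deep cortex, with exact 95% intervals. vEC falls from 0.304% in the medullary junction to 0.160% and 0.0198% in the cortical junction and deep cortex, while capEC and aEC rest on few bins.

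Taken the other way, 324 of the 765 bins in the zones with a vascular first label (42.4%, 38.8 to 45.9) belonged to the junction. The junction held 16.1% of all labelled bins in the zones. The share was 47.5% for vEC, 44.6% for aEC, 38.8% for vSMC_PC and 30.9% for capEC. The shares were lower with a label in any place, at 23.3% for vascular labels together, 2467 of 10580 bins. They were then 29.8% for vSMC_PC, 26.4% for vEC and 21.5% for aEC. For capEC the share was 13.4% (12.0 to 14.8), under the 16.1% of all labelled bins. Of the 174 cortical bins with vEC as first label, 39.7% lay within 50 µm of the medulla and 63.8% within 100 µm. Of all labelled cortical bins, 10.5% and 22.1% lay there. With vEC in any place, the shares were 19.0% and 34.1% of 2710 cortical bins. The 324 bins formed 239 clumps of touching bins, of which 181 were single bins.

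In the stromal library the vascular labels were supported unevenly by their markers. Selp, an adhesion molecule of venous endothelium that catches blood cells, was at 872 CPM in vEC and 42.0 in capEC. Ackr1 at 421 CPM and Vwf at 403 were also highest in vEC, and 3 of 4 venous genes were. All 4 genes shared by endothelium were highest in an endothelial type. Of the arterial genes 1 of 5 was highest in aEC, and of the capillary genes 2 of 4 in capEC, so those 2 labels separate less clearly. Myh11, a smooth muscle motor protein, was at 998 CPM in vSMC_PC, and 5 of 6 genes listed for vSMC_PC were highest there. Pdgfrb was not, at 402 CPM against 534 in TMC4.

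Labels around vascular bins of the cortex differed from those of other bins at the same distance from the border. Around vascular bins of the medullary junction, mature SP, mTEC, AgoSel and regulatory labels differed less, but DP differed more. Within 30 µm of the 146 vascular bins of the cortical junction, mature SP labels made up 14.7% of neighbours, against 10.8% for bins in rings at the same distances from the border, a ratio of 1.36. It was 1.22 when the neighbours' UMIs were matched as well. mTEC labels were at 13.5% against 8.96% (1.51, and 1.15 with UMIs matched), and DP at 7.45% against 12.3% (0.605 and 0.892).

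Further out, around the 280 vascular bins of the mid and deep cortex, mature SP labels made up 3.80% against 1.96%, a ratio of 1.94, and 1.85 with UMIs matched. The ratio there was larger for mTEC, at 4.53 (2.35 with UMIs matched). It was 1.77 for Pre-Treg and Treg (1.67) and 1.42 for AgoSel (1.30). DN and DP were lower, at 0.989 (0.872) and 0.768 (0.96). Around the 178 vascular bins of the medullary junction the ratio was 1.00 for mTEC (0.931 with UMIs matched), 1.03 for AgoSel (1.01) and 1.05 for Pre-Treg and Treg (1.01). It was 1.13 for mature SP (1.10) and 0.557 for DP (0.836).

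TMC4, mesenchymal cells with the highest level of Ccl21 in the stromal library, made up 30 of the 3864 neighbours in the medullary junction, 3.56 times their share in the same rings, and 3.44 times with UMIs matched. The label TMC4 itself was the first label of 38 inner medullary bins (0.385%), 72 medullary junction bins (0.221%), 33 cortical junction bins (0.0766%) and 5 deep cortical bins.

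The second table of the section follows segmented cells, and their sizes differed little across the junction. Placed by the nearest 20-unit bin, 54212 cell bins fell in the medullary junction and 71428 in the cortical junction, with median areas of 44.5 and 42.0 µm². The inner medulla was at 44.0 µm² and the deep cortex at 45.5 µm². Segmented density was 16565 and 16353 cell bins per mm² on the medullary and cortical side of the border and 13125 in the deep cortex.

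Cell bins are shallower and left more of the tissue without a label, 23.1% in the cortical junction and 34.0% in the deep cortex. Among labelled cell bins DP was at 11.7% and 24.6% in those zones and DN at 26.1% and 47.6%. Vascular labels were at 0.605% in the medullary junction, 0.480% in the cortical junction and 0.122% in the deep cortex, a cortical ratio of 3.94 (3.36 to 4.63).

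The limit of 50 µm did not fall on a step. Just inside it on the cortical side, in the ring from 40 to 50 µm, DN was at 41.8%, mature SP at 5.32% and the median depth at 348 UMIs. Just outside, from 50 to 60 µm, they were at 44.9%, 3.90% and 332. On the medullary side mature SP labels were at 25.4% just inside and 27.1% just outside, and mTEC labels at 21.3% and 19.7%.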

How the data were processed

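Zones were defined from the deposited bin coordinates and regions of 1 section of Lewis rat thymus, by the distance from each cortical bin to the nearest medullary bin and the reverse. The authors deposited counts of UMIs per bin and per cell bin, and whole counts per gene and barcode for the 2 libraries (Cell Ranger 8.0.0, Seurat 5.3.0 and build mRatBN7.2, per the submitters' processing notes). Labels came from RCTD, per the series' design text, and each deposited weight is a fraction given by the authors. The deposited score for medullary epithelium and that for medullary thymocytes are scores of the authors, which are not used in the text. The percent of mitochondrial UMIs deposited by the authors per cell was not used. The region rule is not given in the sources used here. Bins without a first label (1.18%) were left out of shares.

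Intervals of shares are exact (Clopper-Pearson), and those of a ratio of 2 shares are log-normal. CPM were computed by summing UMIs per authors' type. Genes named are listed markers with at least 20 UMIs in the type they mark, and the levels of these and of listed migration genes in other types. Members and lists were chosen with earlier results of these data known. A ratio of 1.5 was counted as a difference with no test. Of the barcodes of the libraries (16160 and 8574), 38 were in both. The neighbour ratios compare bins within 30 µm with rings of equal distance from the border. No doublets were removed. Distances were checked against direct search for 200 bins. On simulated data 93.8% of 600 ratios, cortical junction over deep cortex, lay within their 95% interval. The simulated bins were independent draws, so this checks the formula only and not intervals for neighbouring bins that share tissue. Scripts ran in Python 3.11.15 (matplotlib 3.10.9, pandas 2.3.3, SciPy 1.17.1, NumPy 2.4.6). Alternatives varied the junction width, far zone, label, depth, segmentation, left and right part of the section, small pieces and capsule distance. Those chosen after seeing the data were confident labels, thymocyte or non-epithelial labels alone, each kind of border, cell bins placed by the nearest bin, a nearer deep cortex, both zones set to the UMIs of the far zone (weights by its deciles), and all alternatives of the number of junction bins.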

Additional observations from a re-analysis of the deposited data

Results flagged for a closer look

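The vascular share at the medullary edge went opposite ways in the 2 kinds of medulla. In mECA it was 0.495% at the junction (110 bins) against 0.238% in the inner medulla (13 bins), a ratio of 2.08 (1.17 to 3.69). In mEFA it was 0.660% (68 bins) against 1.07% (47 bins), a ratio of 0.618 (0.427 to 0.895). The difference between the 2 ratios was not tested, since the section is 1 sample. Median depth was 511 and 508 UMIs in the mECA zones and 471 and 514 in the mEFA zones, and its part in the difference was not tested.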

How the results depend on the processing

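Of 583 alternative values of 34 results, 283 fell inside the counting interval of the value printed above or, for the number of junction bins, differed by under 1.5 times. Another 289 fell outside, and 11 lay on the other side of 1 from a value whose interval excluded 1. In all, 20 lay on the other side of 1, and the other 9 were medullary ratios of vascular labels or of vEC, whose main intervals include 1. Those of vascular labels were 2.08 at mECA and 1.30 left of the median x. The intervals are narrow because bins are many, so a small move can fall outside them. For the main results, 90 values fell outside, 40 stayed inside by the same rules and 2 lay on the other side of 1. Some of their moves were large, as the values below show. No value of the cortical DN and DP ratios or of the medullary mature SP ratio rose to 1, and the cortical vascular ratio lay above 1 under each of its alternatives. A junction of 30 µm (60 units) had 46720 bins. Why values moved was not tested, except that fewer bins enter under the stricter choices. Rare labels have wide intervals, such as 2.03 to 6.74 for the cortical ratio of aEC on 16 and 32 bins. With bins given 1 type, the epithelial and medullary vascular ratios could not be computed, since a zone had no such bin. No paired analysis was possible because there was 1 section and 1 library of each kind.

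With the junction at 30 µm, the ratio was 0.367 for DP, 0.495 for DN, 0.546 for mature SP, 1.52 for epithelium, and 1.48 (cortical) and 0.961 (medullary) for median UMIs. Against the zone at 50 to 100 µm it was 0.575 for DP, 0.661 for DN, 0.721 for mature SP, 1.10 for epithelium, 2.13 for cortical vascular labels, and 1.29 and 0.967 for UMIs. Counting a label in any place gave 0.526 for DP, 0.652 for DN, 0.657 for mature SP, 1.16 for epithelium and 1.73 for cortical vascular labels. Bins given 1 type gave 0.688, 0.849 and 0.487 for DP, DN and mature SP, and 3.38 for cortical vascular labels on 1 and 4 bins. Sums of weights gave 0.617 for DN, 0.620 for mature SP, 1.33 for epithelium and 2.03 for cortical vascular labels.

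Bins at or above the median UMIs gave 0.422 for DP, 0.485 for DN and 3.61 for cortical vascular labels. Equal weight for each decile of the section's UMIs gave 0.730, 0.601 and 2.47 for these and 1.30 for epithelium. Setting both zones to the UMIs of the far zone, an alternative added after seeing the data, gave 0.753, 0.653 and 2.48, with the 3 medullary ratios inside their intervals. Cell bins with their own region map gave 0.384 for DP, 0.438 for DN, 0.727 for mature SP, 1.97 for epithelium, 4.14 and 0.516 for cortical and medullary vascular labels, and 1.28 and 0.814 for UMIs. That map left 1156 cell bins in the inner medulla, against 16848 when placed by the nearest bin. Its medullary ratios thus rest on a much smaller inner medulla. Cell bins placed by the nearest bin gave 0.549 for DN, 0.636 for mature SP, 3.94 for cortical vascular labels, and 1.23 and 0.969 for UMIs.

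Left of the median x, the ratio was 0.468 for DP, 0.674 for DN, 1.96 for epithelium, 1.30 for medullary vascular labels, and 1.41 and 0.958 for UMIs. Right of it, the values were 0.497, 0.592, 1.38, 0.622, 1.33 and 1.00. The medullary vascular ratio thus lay on different sides of 1 in the 2 parts. Without small pieces, DP was at 0.50, DN at 0.650 and medullary UMIs at 0.990. Without bins near the capsular area, DN was at 0.618 and cortical UMIs at 1.32.

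Confident labels gave 0.610 for DP, 0.764 for DN, 0.457 for mature SP, 1.48 for epithelium and 7.26 for cortical vascular labels. Thymocyte labels alone gave 0.523, 0.682 and 0.649 for DP, DN and mature SP. A deep cortex limited to 100 to 200 µm gave 1.36 for cortical UMIs. The mECA border alone gave 0.358 for DP, 0.503 for DN, 0.665 for mature SP, 1.32 for epithelium, 6.68 and 2.08 for cortical and medullary vascular labels, and 1.57 and 1.01 for UMIs. The mEFA border gave 0.614, 0.773, 0.538, 2.18, 4.07, 0.618, 1.20 and 0.916 for the same. The medullary UMI ratio was reversed at mECA and in the right part, where it was 1.01 and 1.00.

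Among single labels, the medullary ratios of AgoSel1 (0.994), DP-sig (0.689) and Immature CD8-1 (0.968) fell under 1 with equal weight for each decile of the section's UMIs. At the UMIs of the inner medulla they were 1.44, 2.48 and 1.20, inside their intervals. That of AgoSel2 was 0.914 in bins given 1 type, 0.983 in cell bins with their own map, 0.932 among confident labels and 0.971 at mEFA. The cortical ratio of capEC was 0.925 in any place and 0.485 among confident labels.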
